A study of Mus musculus with 12 samples.

Results

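The genes of the cytosolic ribosomal proteins were followed across 12 bulk RNA sequencing libraries from mouse meninges, the membranes around the brain. Members were all genes with a symbol of the form Rpl or Rps plus a number, including letters such as a, x and l, together with Rplp0, Rplp1, Rplp2 and Rpsa, leaving out names that end in -ps and the Rps6k kinases. The rule used names only and no measured value. It found 85 genes among the 27574 that could be joined across the annotations of the files, 52 with large subunit names and 33 with small subunit names. After a filter on low counts 81 of these were tested, 49 large and 32 small, among 13943 genes tested in all. The 4 that did not pass were Rpl3l, Rpl10l, Rpl39l and Rps10. Another 4 symbols that fit the rule, Rps3a3, Rps3a2, Rps12l1 and Rpl6l, were listed for the stressed groups alone, with 25, 33, 0 and 4 counts in all, and were not used.

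All mice were male C57BL/6J, and each of the 4 groups has 3 libraries. The first group had no restraint and is called unstressed. The others had 18 days of restraint and then vehicle, psilocybin (a precursor of the serotonin receptor agonist psilocin) or MDMA (a monoamine-releasing amphetamine), given 24 hours before tissue was taken. The cells are labelled as monocytes, obtained with a magnetic isolation kit, and 5 ng of RNA entered each library. The sources used here give no dose and no age. Nothing in the labels ties each library to an animal of its own, so a p-value speaks only of the variation among these samples, which may be technical.

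A ribosome has a large and a small subunit, and nearly every ribosomal protein is present once in each particle, so the genes are usually transcribed at related levels. Their transcripts commonly start with a cytosine followed by a run of pyrimidines, the terminal oligopyrimidine (TOP) tract, through which the kinase mTOR and the protein Larp1 set their translation and stability. Monocytes and macrophages, like other cells, change ribosome production with growth and activation. Many processed pseudogenes resemble these genes, and reads shared with such copies could be split between them or lost, so each level below is uncertain to that extent.

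Library totals ran from 807725 to 5136953 counts. Vehicle libraries 1 and 3 stood apart, with 12691 and 11039 genes having a count against 15429 to 24122 in the others, and vehicle library 2 was the shallowest. The unstressed libraries were counted with a RefSeq annotation and the stressed ones with an Ensembl-type annotation, so annotation and stress cannot be told apart, whereas vehicle, psilocybin and MDMA share 1 annotation. The label was checked with markers summed per library in CPM, the usual unit of a gene's counts scaled to its library's total. Classical monocyte markers (8 of 8 listed genes found) summed to 167 to 1196 CPM and choroid plexus epithelium markers (10 of 10) to 13090 to 127185 CPM, so transcripts of other cells were abundant. Fibroblast markers summed to 1249 to 14495, endothelial and mural 2459 to 6071, non-classical monocyte 442 to 1348, border macrophage 987 to 3069, neutrophil 25.1 to 2632 and pineal 8.19 to 5915 CPM. B lineage markers summed to 110 to 563, T and NK (5 of 6 listed genes found) 14.2 to 140, erythroid 0.512 to 200 and proliferation 63.3 to 466 CPM. In bulk samples, fewer cells of a type and less RNA per cell cannot be told apart.

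Sequence around the transcription start is shown first for members with large differences below (Rpl38, Rps27, Rps21 and Rpl39), for a stalk protein (Rplp2), and for the abundant Rpl4 and for Rpsa, which differed little. Each line holds 30 bases of the RefSeq promoter table (GRCm38.p6), 15 before the annotated start and 15 from it on, written 5′ to 3′, with capitals for the longest run of a C followed by at least 4 bases that are C or T, among those beginning within 10 bases of the start. Shorter runs in the same window stay in lower case.
Rpl38, chr11:114668565-114668594, + strand: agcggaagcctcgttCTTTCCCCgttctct
Rps27, chr3:90213634-90213663, - strand: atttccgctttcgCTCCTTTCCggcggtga
Rps21, chr2:180257364-180257393, + strand: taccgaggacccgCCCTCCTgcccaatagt
Rpl39, chrX:37085208-37085237, - strand: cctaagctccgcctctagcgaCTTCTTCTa
Rplp2, chr7:141447636-141447665, + strand: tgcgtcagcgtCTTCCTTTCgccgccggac
Rpl4, chr9:64173372-64173401, + strand: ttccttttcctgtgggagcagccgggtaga
Rpsa, chr9:120127751-120127780, + strand: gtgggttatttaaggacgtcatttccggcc

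Of the 85 members, 64 had an entry in that table, and 40 of these (62.5%) held such a run at a listed start, against 34.3% of 26961 other genes and 35.1% of the 16288 that code for protein. The lines for Rpl4 and Rpsa hold no run in capitals, which says only that these letters do not begin in the window searched. Rps28, which had a large difference below, and the stalk gene Rplp0 also had an entry without a run. The lines shown are examples. Over tested members the median log2 difference of psilocybin from vehicle was 0.90 with the run and 0.94 without it. The letters CCGGAAG, on either strand within 250 bases before to 50 after the start, were in 26 of the 64 (40.6%) and in 13.2% of other coding genes. GGGCGG was in 39 (60.9%, other coding genes 51.1%), AAGATGG in 10 (15.6%, other coding genes 7.24%) and TATAAA in 8 (12.5%, other coding genes 14.4%). These words were searched separately and may overlap. The 100 bases before the start of Rpl38 and Rps21 are shown because both genes were among those with the largest differences and both hold CCGGAAG, in capitals.
Rpl38, chr11:114668480-114668579, + strand: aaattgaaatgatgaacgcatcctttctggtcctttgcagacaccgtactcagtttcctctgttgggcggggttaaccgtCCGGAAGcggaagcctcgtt
Rps21, chr2:180257279-180257378, + strand: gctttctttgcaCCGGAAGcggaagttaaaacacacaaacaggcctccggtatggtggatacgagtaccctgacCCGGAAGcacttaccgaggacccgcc
No entry was given for 21 members, among them Rpl32, Rplp1, Rps14 and Rps29.

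Ribosomal protein genes together took a small share of every library, and the highest sums were in the psilocybin group. The 85 genes summed to 1908, 3971 and 1583 CPM in unstressed libraries 1, 2 and 3. Vehicle libraries gave 5154, 4097 and 2226 CPM. Psilocybin libraries gave 6870, 5981 and 7168 CPM, and MDMA libraries 6639, 4365 and 3536 CPM. All 3 psilocybin libraries lay above all unstressed and vehicle libraries, while MDMA library 1 lay within the psilocybin range and the other MDMA libraries within the vehicle range. As shares of the counts, the extremes were 0.158% in unstressed library 3 and 0.717% in psilocybin library 3. The group means were 2487 ± 1295 CPM for unstressed, 3825 ± 1483 for vehicle, 6673 ± 618 for psilocybin and 4847 ± 1607 for MDMA (SD, n = 3 each). No test was run on these sums, since the genes were chosen with earlier results of these data known.

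**Figure D1:**
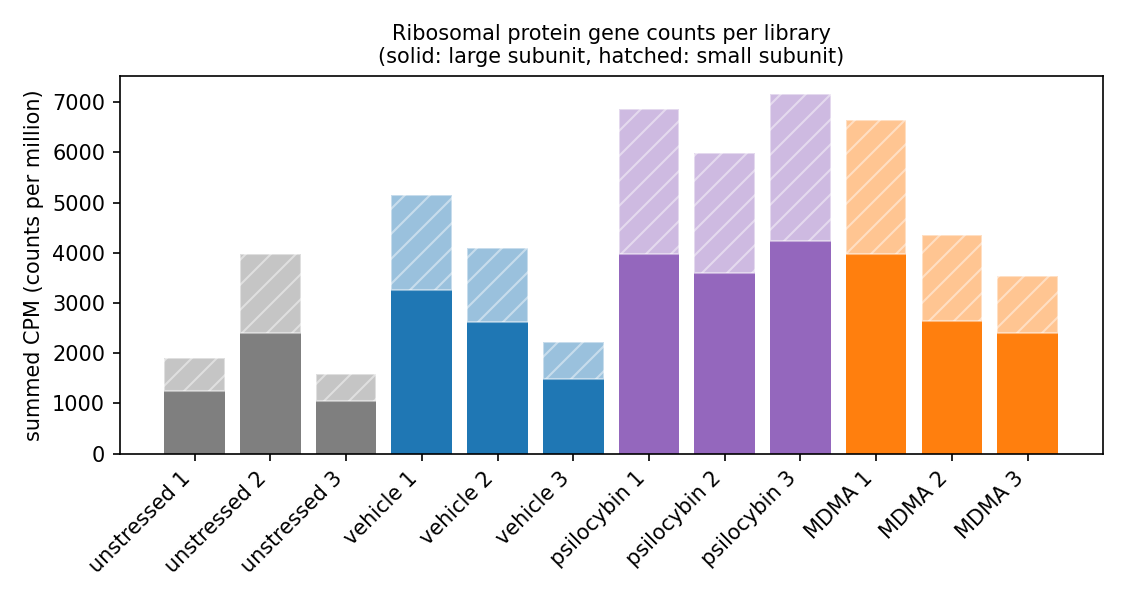
Summed level of the 85 ribosomal protein genes in each library, in CPM on a linear axis from 0, split into large subunit (solid) and small subunit (hatched) genes and coloured by group. The psilocybin libraries lie between 5981 and 7168 CPM, while the unstressed, vehicle and MDMA libraries each spread widely within their group.

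Large subunit genes, which are more numerous, summed to more than small subunit genes in every library. The log2 ratio of the large to the small sum was 0.94, 0.61 and 0.96 in unstressed, 0.79, 0.83 and 1.03 in vehicle, 0.46, 0.59 and 0.52 in psilocybin and 0.58, 0.61 and 1.08 in MDMA libraries 1, 2 and 3. The psilocybin libraries were below all vehicle and unstressed libraries in this ratio, and psilocybin library 2 overlapped MDMA library 1. Rpl4, which reaches into the exit tunnel of the large subunit, was 6.45% to 7.31% of all ribosomal protein counts in psilocybin libraries and 8.01% to 21.7% in the others. Without Rpl4 the log2 ratio was 0.29 to 0.41 in psilocybin, 0.47 to 0.54 in vehicle, 0.37 to 0.51 in unstressed and 0.31 to 0.67 in MDMA libraries. Psilocybin then still lay below vehicle but overlapped both unstressed and MDMA. The middle gene of each subunit gave the opposite order, with a lower median CPM for large than for small subunit genes in all 12 libraries, for example 57.9 against 74.3 in psilocybin library 1 and 11.5 against 14.9 in unstressed library 1.

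Levels between genes were compared per kilobase of RefSeq exon, as means over the 12 libraries. The quartiles over the 81 tested genes were 27.1 and 75.3 CPM per kilobase and the median 42.7. Rpl4 was the highest at 324, followed in the large subunit by Rpl32 (166), the stalk base protein Rplp0 (143) and Rpl13 (123). In the small subunit Rps14 stood at 299 and Rps27 at 115, both in CPM per kilobase. Genes whose proteins are present in like number in the ribosome thus had unlike counted levels.

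Of the 81 tested genes, 68 had their highest group mean in psilocybin and 70 their lowest in unstressed libraries. By single libraries the lowest value fell most often in vehicle library 3 (33 genes), unstressed library 3 (26) and unstressed library 1 (13). Libraries of 1 group thus differed among themselves in most of these genes. The test over all 4 groups at once (edgeR, quasi-likelihood F test, Benjamini-Hochberg adjusted over all genes, threshold 0.05) called 0 of the 81 genes, where it called 0.581% of all genes tested, and 15 members (18.5%) had an unadjusted p under 0.05, against 14.3% of all genes. In the same test DESeq2 called 11 members (13.6%, all genes 10.2%) and limma's voom with quality weights 51 (63.0%, all genes 12.4%). Without vehicle library 2 edgeR called 4 of 82 members (4.88%), fewer by share than the 17.2% of all genes. Without vehicle library 1 or 3 it called Rpl13a alone, with 1.01% and 2.37% of all genes called.

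**Figure D2:**
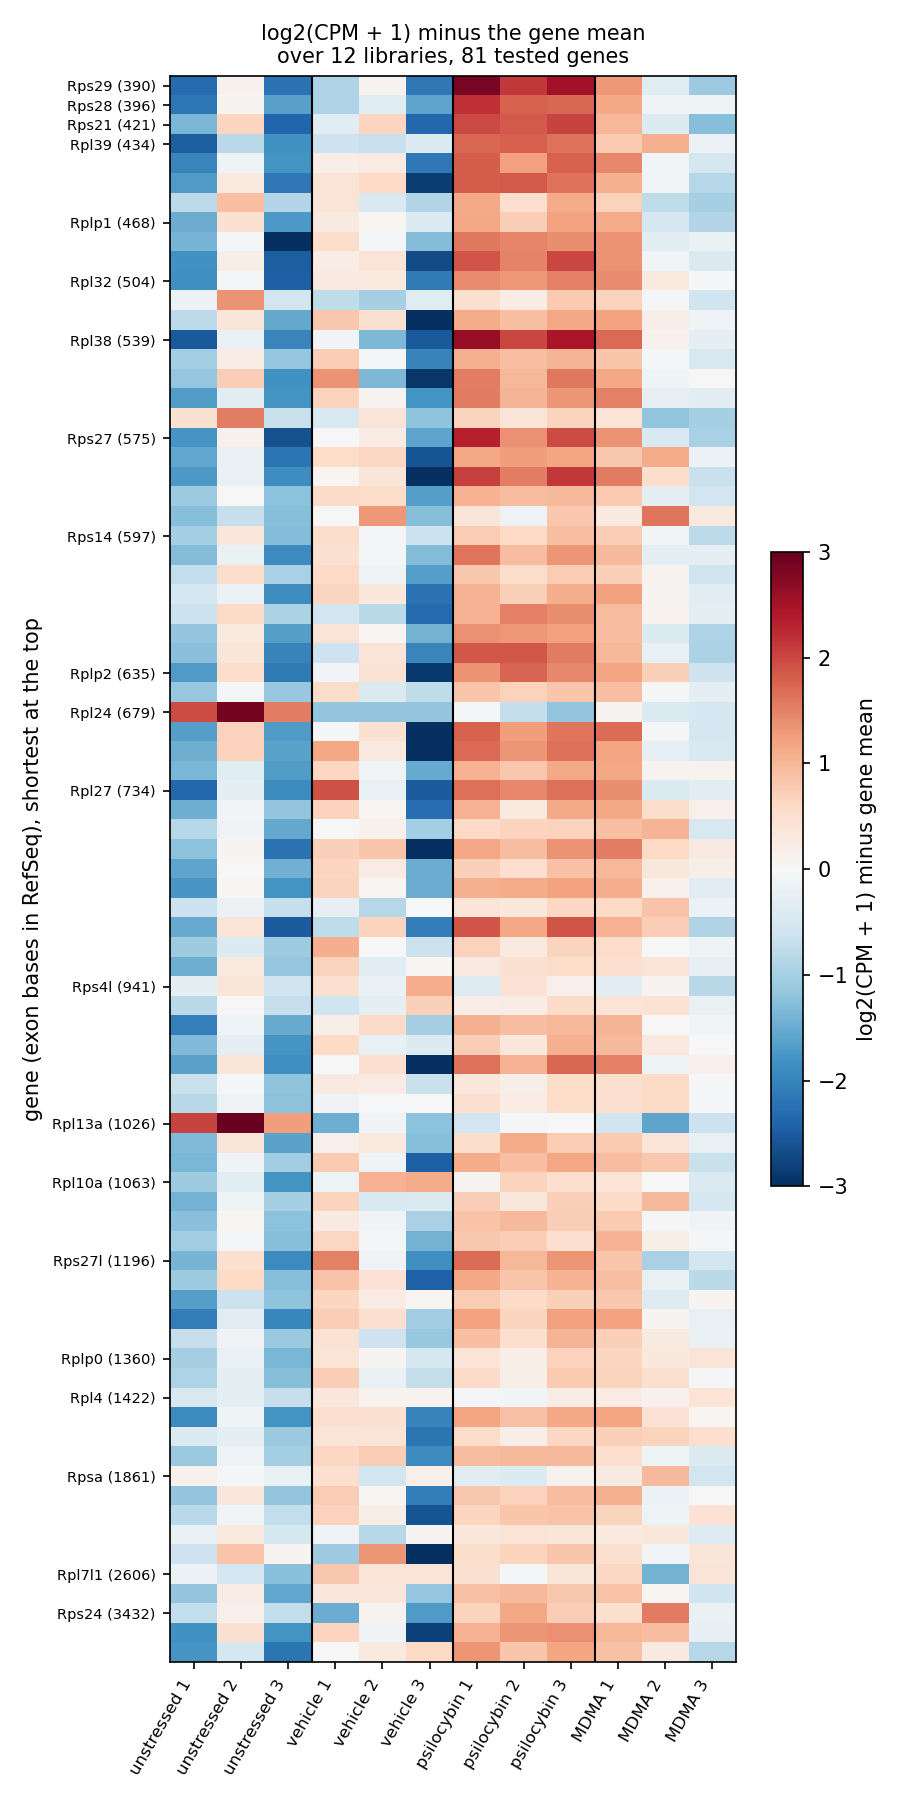
log2(CPM + 1) of each tested ribosomal protein gene minus its mean over the 12 libraries, with genes in rows ordered by RefSeq exon length, shortest at the top, and libraries in columns by group. Row labels are given for some of the genes described in the text. Most rows are highest in the psilocybin libraries and lowest in unstressed libraries 1 and 3 or vehicle library 3, and Rpl24 and Rpl13a are highest in the unstressed libraries.

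Whether psilocybin after restraint changed ribosomal protein transcripts is read from psilocybin against vehicle, counted with 1 annotation. The genes lay higher with psilocybin, most of all the short ones, yet none passed the test. Of the 81 genes, 75 had a positive log2 difference, against 59.8% of all genes, and the median was 0.92 against 0.31 over all genes. In 51 of 81 (63.0%) all psilocybin libraries exceeded all vehicle libraries, against 20.8% of all genes and in 0 were they all below (2.62% of all genes). edgeR called 0 members (0.0143% of all genes), with 8 members higher and 0 lower at an unadjusted p under 0.05, where 12.1% of all genes were higher and 3.82% lower. DESeq2 called 4 members, all higher (Rpl30, Rpl38, Rps28 and Rps29), a share of 4.94% that is below the 7.58% of all genes it called, and voom called 0. In voom's fit with quality weights the members' median was 0.98 and that of all genes 1.02, so the members did not lie above all genes there. Without vehicle libraries 1 and 3, a setting added after seeing the data, 79 of 82 differences were positive with a median of 1.15, and psilocybin exceeded the remaining vehicle library in 71 of 81 genes, where 41.3% of all genes did. When vehicle library 2 was left out edgeR called Rps29 alone among 82 members, a share of 1.22% against 24.4% of all genes. The members' median was 1.46 without vehicle library 1 (all genes 0.56), 0.87 without library 2 (0.63) and 0.63 without library 3 (0.37). With DESeq2's size factors the median over all genes moved from 0.31 to 0.12 and that of the members from 0.92 to 0.72.

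Rps29, a zinc-binding protein of the small subunit head (chr12:69157722-69159186 in GRCm38), had the lowest adjusted p among members in this comparison. It measured 2.48, 6.19 and 0.512 CPM in vehicle and 47.1, 28.1 and 37.5 CPM in psilocybin libraries 1, 2 and 3. Unstressed libraries held 0.339, 6.24 and 0.444 CPM and MDMA libraries 15.4, 4.2 and 2.14 CPM. Every psilocybin library was above every other library. The log2 difference from vehicle was 3.68 ± 1.32 (SE, adjusted p = 0.181 in edgeR).

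Rpl38, a large subunit protein known for its part in patterning the mouse axial skeleton, gave 4.42, 1.24 and 0 CPM in vehicle and 33.7, 21.9 and 30.2 CPM in psilocybin libraries. These are 16, 1 and 0 counts against 114, 57 and 123, so the low values rest on few reads. MDMA libraries held 17.4, 5.25 and 3.70 CPM, below all psilocybin libraries and overlapping vehicle. The log2 difference between psilocybin and vehicle was 3.69 ± 1.44 (SE, adjusted p = 0.220 in edgeR).

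Rps28, another protein of the small subunit head, measured 1.38, 2.48 and 0.512 CPM in vehicle, 19.5, 14.2 and 13.7 CPM in psilocybin and 8.97, 3.15 and 3.11 CPM in MDMA libraries. The log2 difference from vehicle was 3.4 ± 1.3 with psilocybin (adjusted p = 0.207) and 1.70 ± 1.25 with MDMA (adjusted p = 0.555, both SE and edgeR). Rpl39, which lines the exit tunnel and is among the shortest of these proteins, measured 3.86, 3.71 and 4.61 CPM in vehicle and 23.7, 24.98 and 22.1 CPM in psilocybin libraries. Its values were tight within both groups and did not overlap, with a log2 difference of 2.31 ± 1.0 (SE, adjusted p = 0.273 in edgeR).

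Some long or abundant members had negative differences. Rpl4 measured 574, 484 and 483 CPM in vehicle and 443, 424 and 524 CPM in psilocybin libraries, which overlapped (log2 difference -0.34 ± 0.35, SE). Rpsa, the small subunit protein also known as the laminin receptor precursor, measured 56.3, 26.0 and 44.0 CPM in vehicle and 30.8, 29.2 and 42.7 CPM in psilocybin libraries (log2 difference -0.54 ± 0.69, SE). Negative differences were also seen in Rpl10a, a protein of the L1 stalk (-0.55 ± 0.70), in Rpl7l1 (-0.44 ± 0.58) and in Rps4l, annotated as a transcribed processed pseudogene (-0.76 ± 0.81). None of these passed the test.

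**Figure D3:**
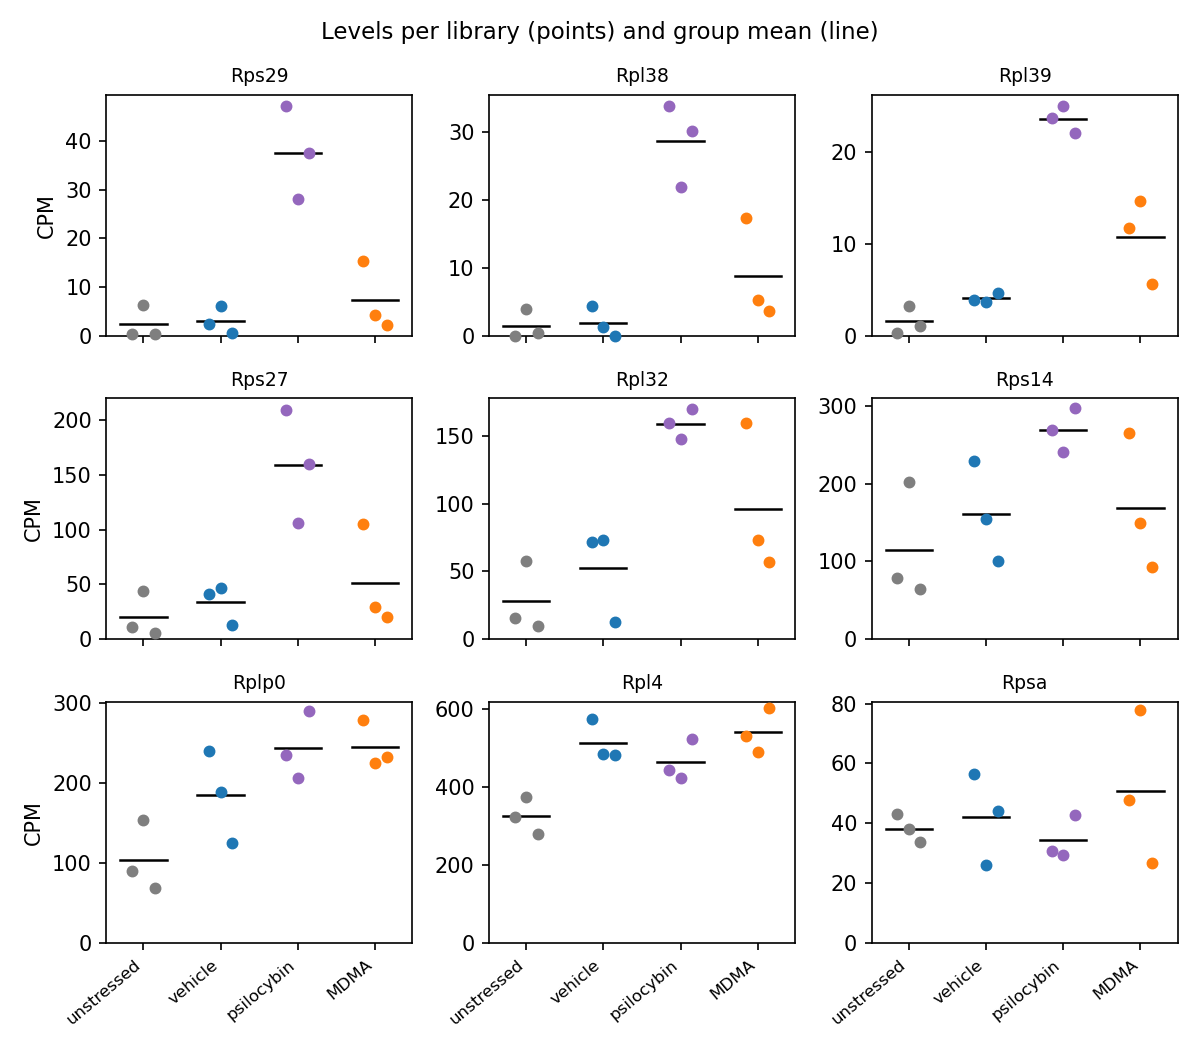
CPM per library (points) and group mean (line) for 9 ribosomal protein genes on linear axes from 0, with libraries 1, 2 and 3 from left to right within each group. Rps29, Rpl38, Rpl39 and Rps27 are higher in all psilocybin libraries than in any other library, whereas the groups of Rpl4 overlap among the stressed mice and those of Rpsa overlap throughout.

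The stalk proteins recruit elongation factors to the large subunit. Rplp0, at its base, measured 240, 188 and 125 CPM in vehicle, 235, 206 and 290 CPM in psilocybin and 279, 225 and 233 CPM in MDMA libraries, and 89.9, 153 and 68.6 CPM in unstressed libraries. Its stressed groups overlapped, and its log2 difference from vehicle was 0.26 ± 0.43 with psilocybin and 0.21 ± 0.43 with MDMA (SE). The 2 acidic proteins have short genes and differed more. Rplp1 measured 54.1, 47.0 and 33.3 CPM in vehicle and 102, 75.3 and 105 CPM in psilocybin libraries (log2 difference 0.92 ± 0.75, SE), and Rplp2 24.0, 34.7 and 2.56 against 66.9, 87.6 and 71.3 CPM (1.88 ± 0.96, SE). Both had psilocybin libraries above all vehicle libraries, with adjusted p = 0.618 and 0.371 in edgeR.

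Among the most abundant others, Rpl32 measured 71.5, 73.0 and 12.8 CPM in vehicle and 160, 148 and 170 CPM in psilocybin libraries (log2 difference 1.55 ± 0.74, SE, adjusted p = 0.329 in edgeR). Rps27, a zinc finger protein of the small subunit, measured 41.1, 47.0 and 12.8 CPM in vehicle and 210, 106 and 160 CPM in psilocybin libraries (2.18 ± 0.85, SE, adjusted p = 0.216 in edgeR). Both sets of libraries were separate. Rps14, whose loss on one allele impairs red cell formation, measured 229, 155 and 101 CPM in vehicle and 268, 241 and 298 CPM in psilocybin libraries (0.59 ± 0.54, SE). Rpl13, a large subunit protein, had a log2 difference of 0.94 ± 0.87 (SE), with vehicle library 3 the lowest of the 12 libraries at 3.07 CPM.

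In the comparisons of psilocybin the differences were largest in short genes. In psilocybin against vehicle, the median log2 difference was 1.97 over the 10 members with under 500 exon bases, 1.30 over 25 with 500 to below 700, 0.68 over 18 with 700 to below 1000, 0.70 over 20 with 1000 to below 2000 and 0.76 over the 8 with 2000 or more. Other protein-coding genes in the same length classes had medians of 1.27, 0.93, 0.40, 0.26 and 0.27. The fall with length was thus present in other coding genes too, and members lay above them in every class of this length. Length here counts all exon bases annotated to a gene in RefSeq, merged over its transcripts, so a single transcript can be shorter. The stressed libraries were counted with the Ensembl-type annotation, where lengths differ. Rps28, for example, has 396 exon bases in RefSeq and 1719 there. Rps15a, at 5136 bases, thus fell in the longest class. How far this places members among longer genes was not tested. In psilocybin against MDMA the members' medians were 1.33, 0.96, 0.32, 0.50 and 0.50, and those of other coding genes 1.46, 0.91, 0.53, 0.25 and -0.06. There, members under 700 bases were close to other short genes, those of 700 to below 1000 lay below and longer ones above other genes of their length. In vehicle against unstressed mice the members' medians were 0.80, 0.62, 0.99, 0.83 and 0.57. Other coding genes had 0.82, 0.57, 0.67, 0.35 and -0.36, so members under 700 bases were close to them. Psilocybin against unstressed mice gave members 2.78, 1.98, 1.65, 1.45 and 1.31, and other coding genes 2.32, 1.57, 1.12, 0.58 and -0.15. MDMA against unstressed mice gave members 1.54, 0.98, 1.34, 0.97 and 0.83, and other coding genes 0.85, 0.56, 0.61, 0.35 and -0.06. The 10664 other coding genes of 2000 bases or more weigh most in medians over all genes. Members in MDMA against vehicle had 0.53, 0.46, 0.24, 0.18 and 0.18. Other coding genes there ran from -0.44 in the shortest to 0.31 in the longest class. The part of length in the differences was not tested.

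**Figure D4:**
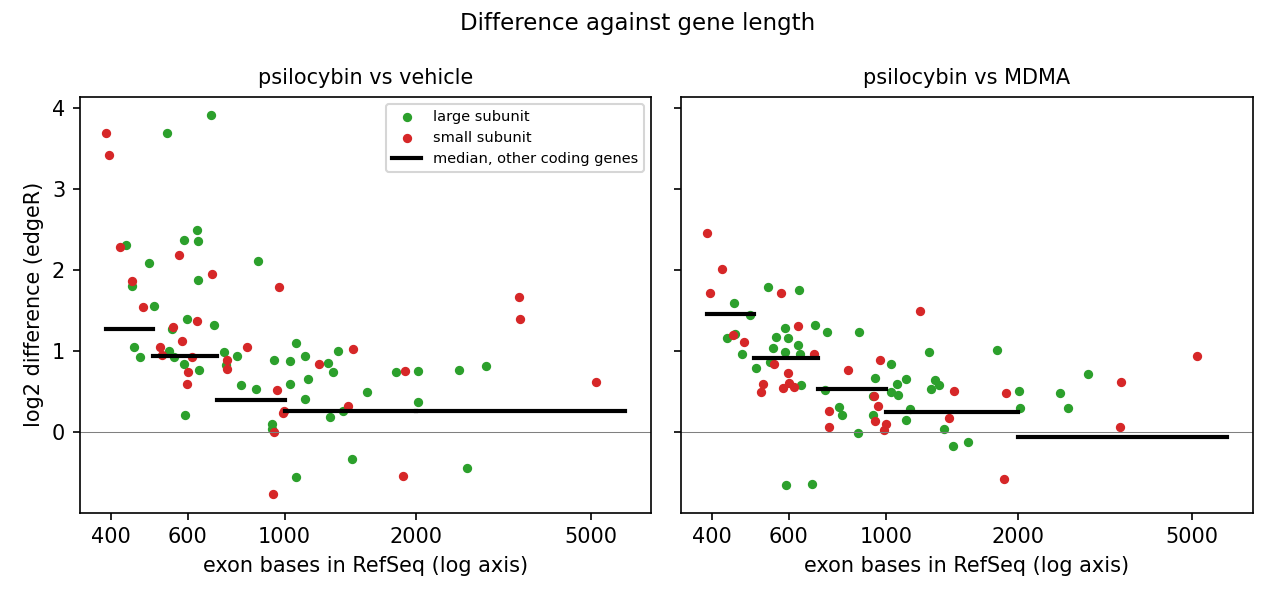
log2 difference of each ribosomal protein gene (points, by subunit) against its RefSeq exon length on a log axis, for psilocybin against vehicle and psilocybin against MDMA, with the median of other protein-coding genes in 5 length classes as black bars. Points and bars are highest at the short end of both panels, and most points above 1000 bases lie between 0 and 1. Length counts all exon bases annotated to a gene, so a single transcript can be shorter. The value of Rpl24, at 3.90 against vehicle, has no counts in the vehicle group and is no estimate of size.

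The same was visible library by library. The counts of the 35 members under 700 bases, divided by those of the 30 members of 1000 bases or more, gave 0.346, 0.619 and 0.312 in unstressed, 0.468, 0.467 and 0.229 in vehicle, 0.848, 0.762 and 0.769 in psilocybin and 0.645, 0.413 and 0.297 in MDMA libraries. The psilocybin libraries were above all others. As a median deviation from the 12-library mean in log2 CPM, members under 700 bases stood at -1.46, 0.15 and -1.83 in unstressed libraries 1, 2 and 3, and the 199 other coding genes of that length at -1.02, 0.34 and -1.20. In psilocybin libraries the members stood at 1.496, 1.23 and 1.35 and the other short genes at 1.18, 0.98 and 0.98. Vehicle libraries had members at 0.38, 0.05 and -1.63 and other short genes at 0.83, -0.001 and -1.93. MDMA libraries had members at 0.95, 0.01 and -0.63 and other short genes at 0.68, -0.20 and -0.86. Other coding genes of 2000 bases or more stood at -1.33, 0.03 and -1.75 in vehicle libraries and at 0.19 to 0.44 in the other groups. Unstressed library 2, the highest of its group in ribosomal protein counts, was also the highest of its group for other short genes.

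Marker sums and the mitochondrial share are given beside these values. Choroid plexus markers summed to 64605 to 118056 CPM in psilocybin and 13090 to 127185 CPM in vehicle libraries, with none of the 10 genes at 0 in either group. They summed to 15495 to 40489 CPM in unstressed and 22814 to 44568 CPM in MDMA libraries. Classical monocyte markers summed to 234 to 563 CPM in psilocybin, 167 to 610 in vehicle, 423 to 514 in unstressed and 549 to 1196 in MDMA libraries, with none of 8 at 0 in any group. Fibroblast markers summed to 2157 to 4804 CPM in psilocybin, 1249 to 6411 in vehicle, 4245 to 7188 in unstressed and 7646 to 14495 in MDMA libraries, with none of 10 at 0. Transcripts of the mitochondrial genome took 4.03% to 5.01% of counts in psilocybin libraries and 3.69% to 12.5% in the others, with the top in vehicle library 3. The part of these in the ribosomal protein values was not tested.

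MDMA against vehicle gave a median near that of all genes in edgeR and one below it in voom (0.40 against 0.95). Of the 81 genes, 62 had a positive log2 difference, against 57.1% of all genes, with a median of 0.27 against 0.24 over all genes. In 5 of 81 (6.17%) every MDMA library exceeded every vehicle library, against 16.8% of all genes, and in 0 were all lower (1.87% of all genes). edgeR called 0 members (0.674% of all genes), with 2 higher (13.2% of all genes) and 0 lower (3.49%) at an unadjusted p under 0.05, and DESeq2 and voom each called 0 (9.57% and 0% of all genes). The median became -0.08 without MDMA library 1 and was 0.38 without vehicle libraries 1 and 3. The member with the lowest adjusted p was Rps24, a small subunit protein linked to Diamond-Blackfan anaemia. It measured 15.5, 48.3 and 13.3 CPM in vehicle and 62.8, 136 and 38.9 CPM in MDMA libraries, which overlapped (log2 difference 1.60 ± 0.71, SE, adjusted p = 0.264 in edgeR). The largest positive difference among members with vehicle counts was in Rpl38 (1.90 ± 1.37, SE), and Rps4l, Rpl10a and Rpl7l1 had the largest negative ones (-1.20, -1.02 and -0.73).

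Psilocybin against MDMA, which share time and annotation, had 75 of 81 positive log2 differences, against 51.1% of all genes, and a median of 0.62 against 0.02. In 25 of 81 (30.9%) every psilocybin library exceeded every MDMA library, against 7.75% of all genes, and in 0 were all lower (8.33% of all genes). edgeR called 0 members (0% of all genes) and had 0 at an unadjusted p under 0.05 in either direction (0.244% of all genes higher and 0.344% lower), and DESeq2 and voom called 0. The median ran from 0.35 to 0.93 as each library was left out in turn. The largest differences were in Rps29 (2.46 ± 1.21), Rps21 (2.01 ± 1.05) and Rpl38 (1.79 ± 1.31, SE). Rps21, a short protein of the small subunit, measured 60.4, 55.3 and 62.8 CPM in psilocybin and 30.3, 10.8 and 5.45 CPM in MDMA libraries, with no overlap. MDMA library 1 was the nearest to psilocybin for Rps29, Rps21, Rpl38 and Rps28 alike.

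Restraint with vehicle against no restraint sets the RefSeq and Ensembl-type annotations against each other, as do both drugs against unstressed mice. Of the 81 genes, 73 had a positive log2 difference, against 44.9% of all genes, and the median was 0.79 against -0.18 over all genes. With DESeq2's size factors in place of TMM scaling the median over all genes moved to 0.00 and that of the members to 0.96, so that the members lay 0.98 above all genes with TMM scaling. In 7 of 81 (8.64%) all vehicle libraries exceeded all unstressed ones, against 2.77% of all genes, and in 2 they were all below (17.8% of all genes). edgeR called 1 member (3.41% of all genes), Rpl24, as lower (3.19% of all genes were called lower) and 0 as higher (0.222%). At an unadjusted p under 0.05, 9 members were higher (4.41% of all genes) and 2 lower (14.1%). Countable sequence means RefSeq exon bases in the gene's own Ensembl-type exons and in no other gene's. Of the 60 tested members with at least 90% countable bases edgeR called 0. In a fit of such genes alone it called 0.922% of all genes, so 0 among 60 says little. With all genes fitted, the median of the 60 was 0.83 and 57 differences were positive, against 44.9% of all genes, countable or not. The measure takes no account of bases found only in Ensembl-type exons, so higher values here cannot be told apart from annotation. Rpl12, at 100% countable, has 638 exon bases in RefSeq and 3598 in Ensembl-type exons. Only 5 members have nearly the same exons in both annotations. DESeq2 called 8 (9.88%, all genes 12.5%), of which 6 were higher, and voom 0. With single libraries left out edgeR called Rpl24 only without vehicle library 2, with 6 other members, and these 7 of 82 (8.54%) were a smaller share than the 25.4% of all genes called there. Without vehicle library 3 it called Rpl13a alone (6.77% of all genes), and without vehicle library 1 or any unstressed library 0 members.

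Rpl24 (chr16:55966275-55971435), a large subunit protein, had 0 counts in every vehicle library and 7.80, 15.7 and 5.55 CPM in unstressed libraries. Over the group that is at least 20.6-fold lower, from a floor of 3 counts over the 3 vehicle libraries (adjusted p = 0.0452 in edgeR). Only 28.4% of its exon bases were countable in the stressed libraries, because a read-through gene model, Gm28037, overlaps it, and that model was listed at 0 there. Psilocybin and MDMA libraries also held at most 1.40 CPM of Rpl24. Rpl13a, which can leave the ribosome to silence inflammatory transcripts, measured 62.4, 122 and 36.2 CPM in unstressed and 4.69, 13.6 and 5.63 CPM in vehicle libraries, with 39.5% of its bases countable beside the model Gm45713 (log2 difference -3.10 ± 0.85, SE, adjusted p = 0.0587 in edgeR). Rps10, with 31.3% countable bases, was also higher in every unstressed library (2.89 to 11.2 CPM) than in any stressed one (at most 1.54 CPM). Rpl23a, with 44.6%, had a log2 difference of -1.01 ± 0.96 (SE) in the same direction. The lower values of these genes with stress and the annotation cannot be told apart.

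On the other side, Rpl10a measured 15.3, 25.9 and 8.88 CPM in unstressed and 29.8, 69.3 and 72.7 CPM in vehicle libraries, which did not overlap (log2 difference 2.01 ± 0.73, SE, adjusted p = 0.147 in edgeR). Rpl27 had a log2 difference of 2.20 ± 1.1 that came from 62.9 CPM in vehicle library 1, beside 13.6 and 2.05 CPM in the others. Rpl32l, annotated as a processed pseudogene, had the largest value (3.20 ± 1.47) from at most 4.95 CPM. Rpl4 measured 324, 375 and 279 CPM in unstressed libraries, below every stressed library, with an adjusted p of 0.197 in edgeR against vehicle.

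Psilocybin and MDMA were also compared with unstressed mice, with the same limit of the annotations and the unstressed libraries shared by all 3 comparisons. With psilocybin, 77 of 81 log2 differences were positive, against 50.6% of all genes, with a median of 1.71 against 0.01. In 72 of 81 (88.9%) all psilocybin libraries exceeded all unstressed ones, against 18.3% of all genes, and in 2 they were all below (18.5% of all genes). edgeR over 12 libraries called 0 members (0.0861% of all genes, 0.0287% as higher and 0.0574% as lower). At an unadjusted p under 0.05, 43 members were higher (3.30% of all genes) and 2 lower (3.04%). In a fit of these 6 libraries alone it called 44 (54.3%, all genes 10.3%), of which 42 were higher. DESeq2 called 15 (18.5%, all genes 1.76%), of which 14 were higher, and voom 74 (91.4%, all genes 19.6%), of which 72 were higher. The largest differences were Rpl38 (4.27 ± 1.47), Rps29 (4.03 ± 1.31) and Rpl39 (3.90 ± 1.06, SE), with adjusted p of 0.484, 0.407 and 0.23 in edgeR. Rpl24, Rpl13a and Rpsa had the largest negative values (-4.07, -2.51 and -0.15).

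With MDMA, 75 of 81 differences from unstressed mice were positive, against 51.8% of all genes, with a median of 1.04 against 0.04. In 19 of 81 (23.5%) all MDMA libraries exceeded all unstressed ones, against 11.7% of all genes, and in 2 they were all below (10.7% of all genes). edgeR called 0 members (0.122% of all genes, 0.0359% as higher and 0.0861% as lower). At an unadjusted p under 0.05, 11 members were higher (2.27% of all genes) and 2 lower (2.71%). DESeq2 called 2, Rpl39 and Rpl13a (2.47%, all genes 1.56%), and voom 17 (21.0%, all genes 7.76%), of which 15 were higher. edgeR on these 6 libraries called 1, Rpl13a (1.23%, all genes 1.76%). Rpl39 measured 0.339, 3.24 and 1.1 CPM in unstressed and 11.8, 14.7 and 5.65 CPM in MDMA libraries, which did not overlap (log2 difference 2.74 ± 1.01, SE, adjusted p = 0.623 in edgeR). Without unstressed library 2 the median became 1.71 for MDMA and 1.53 for vehicle.

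**Figure D5:**
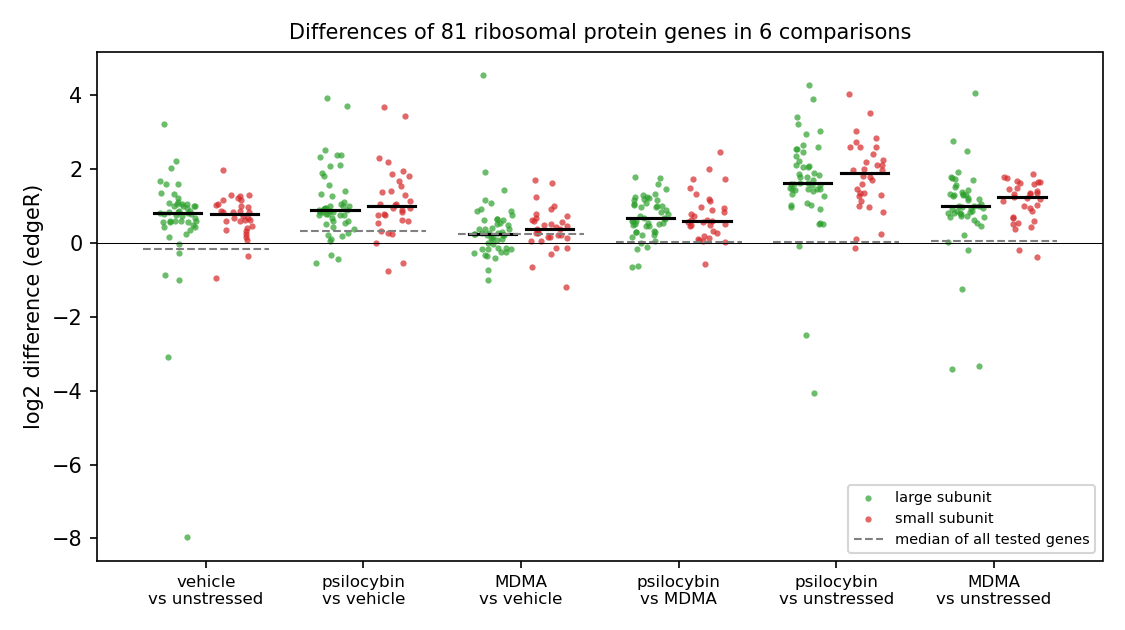
log2 difference from edgeR of the 81 tested ribosomal protein genes in 6 comparisons, by subunit (points), with the subunit median (black bar) and the median over all tested genes (dashed line). The points lie mostly above the dashed line except in MDMA against vehicle, and the lowest points are Rpl24 and Rpl13a in the comparisons with unstressed mice. The extreme values of Rpl24 against vehicle come from 0 counts there and are no estimates of size.

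The subunit medians were close in vehicle against unstressed mice and in psilocybin against MDMA, and higher for the small subunit in the others. In psilocybin against vehicle 46 of 49 large and 29 of 32 small subunit genes had positive log2 differences, with medians of 0.87 and 0.99. In vehicle against unstressed mice the medians were 0.79 and 0.78, and in psilocybin against MDMA 0.66 and 0.60. In psilocybin against unstressed mice they were 1.60 and 1.89, and in MDMA against unstressed mice 0.98 and 1.23. MDMA against vehicle gave 0.23 and 0.37, with 35 of 49 large and 27 of 32 small subunit genes positive. No test between subunits was run.

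Members with and without a pyrimidine run at the start were also set side by side, with no test of the difference. In psilocybin against vehicle the median log2 difference was 0.90 over 36 tested members with the run and 0.94 over 24 without it. For CCGGAAG it was 0.92 over 24 with and 0.93 over 36 without these letters. In psilocybin against MDMA the medians were 0.75 and 0.54 for the run and 0.92 and 0.54 for CCGGAAG.

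Paralogs with restricted expression were low or uneven. Rpl10l, a testis paralog of Rpl10, had 0 counts in all 12 libraries, beside 49 to 546 counts of Rpl10. Rpl3l, the striated muscle paralog of Rpl3, had 0 to 9 counts per library and none in vehicle, beside 47 to 824 of Rpl3. Rpl39l, another testis paralog, had 29 counts in vehicle library 1, more than the 14 of Rpl39 there, and 0 to 5 counts in the other 11 libraries. One library thus held most of its reads.

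Other paralogs made up varying shares of the counts of their pair with the parent gene. Rps27l, a p53 target, made up 39.9% to 44.7% of Rps27 and Rps27l counts in psilocybin libraries and 42.1% to 74.96% in the others, on 48.7% countable bases. Rpl22l1 made up 7.41% to 77.4% of its pair with Rpl22, both extremes being vehicle libraries (2 and 1). Rpl7l1, a nucleolar relative of Rpl7, made up 38.4% to 39.8% in psilocybin and 22.05% to 61.7% in the other libraries. Rps4l made up 13.9% to 50.3% of its pair with the X-linked Rps4x, with the top in vehicle library 3.

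Pathway genes other than ribosomal proteins were counted as lists. Of 18 translation factors and other TOP genes, all tested, edgeR called 0 in any comparison (0% to 3.41% of all genes). Their median log2 difference from vehicle was -0.10 with psilocybin (8 of 18 positive, all genes 59.8%) and -0.06 with MDMA. From unstressed mice it was 0.77 with vehicle, 0.91 with psilocybin and 0.84 with MDMA. Eef2, the elongation factor that moves the ribosome along, had 307 ± 18.8 CPM (SD) with psilocybin and 775 ± 670 CPM with vehicle (log2 difference -1.34 ± 0.52, SE, adjusted p = 0.220 in edgeR). Rack1, a scaffold on the small subunit, had 105 ± 3.68 and 226 ± 133 CPM (-1.11 ± 0.57, SE, adjusted p = 0.375 in edgeR). Eef1g, with a smaller p than Rack1, went the other way, at 80.9 ± 15.6 and 30.9 ± 26.1 CPM (1.40 ± 0.68, SE, adjusted p = 0.337 in edgeR). Over all genes the medians against vehicle were 0.31 with psilocybin and 0.24 with MDMA.

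Of 23 ribosome biogenesis genes edgeR called 1, Polr1b, where 3.19% of all genes were called lower. It was lower in vehicle than in unstressed libraries (0.376 ± 0.652 against 15.2 ± 5.35 CPM, SD, adjusted p = 0.0423 in edgeR). No gene of the list was called in the other comparisons (at most 0.674% of all genes). Polr1b encodes a subunit of RNA polymerase I, which transcribes ribosomal RNA. With psilocybin its mean was 13.3 ± 3.61 CPM (adjusted p = 0.0942 against vehicle in edgeR), and the vehicle group had the lowest mean. Vehicle libraries 1 and 3 are those with few genes detected, and their part in this was not tested. Tsr1 and Rrs1, assembly factors of the small and large subunit, had the same order, with 0.621 and 1.37 CPM in vehicle against 15.7 and 18.9 CPM in psilocybin libraries. The list's median against vehicle was 0.64 with psilocybin and 0.31 with MDMA.

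Of 16 genes of translation control (mTOR and the integrated stress response) edgeR called 0 in any comparison (0% to 3.41% of all genes). Larp1, which binds TOP transcripts, had 3.25 ± 3.13 CPM in vehicle and 27.1 ± 9.61 CPM in unstressed libraries (SD, adjusted p = 0.115 in edgeR), and Mtor 5.14 ± 8.27 and 34.7 ± 17.5 CPM (adjusted p = 0.247 in edgeR). Tsc1 went the other way, at 26.6 ± 20.0 and 6.80 ± 3.66 CPM (adjusted p = 0.251 in edgeR). Larp1 was at 29.4 ± 16.3 CPM with psilocybin and 27.7 ± 14.9 CPM with MDMA, and Mtor at 33.3 ± 13.5 CPM with psilocybin. The part of vehicle libraries 1 and 3, with few genes detected, was not tested. The list's median against vehicle was -0.17 with psilocybin and -0.20 with MDMA. Of 7 host genes of small nucleolar RNAs, themselves TOP genes, 0 were called in any comparison (0% to 3.41% of all genes). Their medians against vehicle were 1.23 with psilocybin and 0.73 with MDMA. Gas5 was at 56.3 ± 33.1 CPM in vehicle and 133 ± 23.9 CPM in psilocybin libraries (SD, log2 difference 1.23 ± 0.56, SE, adjusted p = 0.305 in edgeR).

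Of 77 mitochondrial ribosomal protein genes, which serve the ribosome of the mitochondrion, edgeR called 1, Mrpl53, lower in vehicle than in unstressed libraries (adjusted p = 0.0487). Of all genes 3.19% were called lower there. Mrpl53 had 0 counts in every vehicle, psilocybin and MDMA library and 20.4 ± 10.2 CPM (SD) in unstressed ones. Because 0% of its exon bases were countable in the stressed libraries, this test could not inform on stress for Mrpl53. The list's median was 0.41 for psilocybin against vehicle (52 of 77 positive, all genes 59.8%) and -0.34 for MDMA against vehicle (25 of 77, all genes 57.1%). For psilocybin against MDMA it was 0.66 (75 of 77, all genes 51.1%). The median between the drugs was 0.66 for these genes and 0.62 for the cytosolic ones.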

How the data were processed

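Bulk RNA was sequenced in 12 libraries, 3 in each of 4 groups defined by the sample titles. The deposited values were raw read counts for each gene. The submitters' processing notes name mm10 and, with no order, edgeR 3.42.4, STAR 2.7.5c, fastp 0.23.2 and featureCounts 2.0.1. Per the file headers, unstressed libraries were counted with featureCounts on a RefSeq annotation with no strand option; no source used here gives the release behind the Ensembl-type files. The series table has 3 columns that match no sample and were not used.

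Both annotations were joined by shared symbol at an overlapping locus (26665 genes) or by position (909), with positions from GENCODE vM21 (GRCm38). Counts were filtered (filterByExpr), scaled (TMM) and tested with edgeR 4.0.16 quasi-likelihood (R 4.3.3) on the 12 libraries, with no block for replicate number, at a Benjamini-Hochberg adjusted p of 0.05. Standard errors come from the test statistic; the script was tested on simulated data. Levels are CPM of library totals; group means ± SD of genes outside the family use TMM-scaled totals. A gene at 0 in a group has a floor of 3 counts over the group. Floors cover counting error only.

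Same-numbered libraries of vehicle and psilocybin shared deviations from the means of their groups (correlation over genes 0.112, 0.213 and 0.115), which is read from the data, as no label explains the number. Those of psilocybin and MDMA gave 0.225, 0.024 and 0.214. Psilocybin library 1 and unstressed library 3, of unlike number, gave 0.281, so these values do not establish pairing. Members, lists and alternatives were chosen with earlier results of these data known. Named were members past the threshold, the 3 largest differences each way per comparison, the 4 highest of each subunit per kilobase, stalk genes, Rpsa, paralogs with their parents, and members failing the filter. Other lists name up to 3 genes of smallest p. Some members that the rule names are not reported here. Members that an alternative or a tool called, and those used as examples, were named after their values were seen. Alternatives were DESeq2 1.42.0, its size factors, limma 3.58.1 voom, no filter, 6 libraries, a replicate block, each library left out, other annotations and 2 settings added after seeing the data.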

Additional observations from a re-analysis of the deposited data

How the results depend on the processing

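Shares of all genes called stand in brackets. Counts of members called were 0 or 1 in edgeR's test over 12 libraries and differed with other tools or fewer libraries. In vehicle against unstressed mice the 1 call became 8 with DESeq2 (12.5%) and 0 with DESeq2's size factors (2.14%), no filter (1.4%) and voom (0.00717%). It was also 0 with 6 libraries (0.0164%), the replicate block (0.0717%), nearly the same exons (1.02%) and genes at least 90% countable (0.922%). With libraries left out it ran from 0 to 7 (25.4%). Psilocybin against vehicle gave 4 calls with DESeq2 (7.58%) and 0 to 1 (24.4%) with libraries left out. Psilocybin against unstressed mice gave 15 with DESeq2 (1.76%), 74 with voom (19.6%) and 44 with 6 libraries (10.3%). MDMA against unstressed mice gave 2 (1.56%), 17 (7.76%) and 1 (1.76%) in the same order. The test over 4 groups gave 11 with DESeq2 (10.2%), 51 with voom (12.4%) and 0 to 4 (17.2%) with libraries left out. The causes were not tested.

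Median differences kept their sign in all alternatives except 1: MDMA against vehicle ran from -0.077 (without MDMA library 1) to 0.73 with libraries left out. With voom the members' medians against vehicle lay below those of all genes, at 0.98 against 1.02 for psilocybin and 0.40 against 0.95 for MDMA. Left-out ranges were 0.63 to 1.46 for psilocybin against vehicle, 0.37 to 1.53 for vehicle and 0.80 to 1.71 for MDMA, the last 2 against unstressed mice. Psilocybin against unstressed mice was 0.90 with the 3 tested members whose exons are nearly the same.

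With only the 5 members of nearly the same exons, sums were 95.01 CPM in unstressed, 144.4 in vehicle, 198 in psilocybin and 144.1 in MDMA, and the log2 ratio of large to small became -1.44, -0.98, -0.14 and -1.08. As a difference of medians of log2(CPM + 1) it was -0.16, -0.35, -0.34 and -0.47. Per kilobase it was 0.55, 0.61 and 0.35 in unstressed, vehicle and psilocybin libraries.

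With the replicate block the median in psilocybin against vehicle was 1.13, against 0.92 without it, with 0 calls either way. Pairing by number was not established, so the main test had no block in any comparison. The block gave 0 calls in vehicle against unstressed mice (0.0717%), and no other count changed.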
